A study of Mus musculus with 5 samples.

Results

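The mitosis and spindle genes are 33 genes whose products drive the entry into mitosis, build and guard the spindle, hold and separate the chromosomes, and divide the cell. They were chosen by a fixed list of gene symbols, and all 33 were found among the 25414 genes of the expression tables. The list sets no cut on measured values, but it was drawn up with earlier results of these data known. RNA-seq was examined for 2 replicates of neural stem cells (NSCs) and 3 replicates of STO cells. The NSCs were primary cells of the E12.5 cortex of C57BL/6 mice, cultured for 5 to 8 passages on poly-l-ornithine and laminin with EGF, bFGF, heparin and B27. STO cells are an immortal line of SIM mouse embryonic fibroblasts resistant to thioguanine and ouabain, labelled C57BL/6 and used after more than 30 passages in DMEM with fetal bovine serum. Neither cell type carried a transgene or a treatment in the labels. The comparison is thus between a primary neural culture in growth factor medium and an immortal line in serum, and cell type, origin, passage and medium cannot be told apart.

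At the entry into mitosis, CDK1 bound to cyclin A or cyclin B phosphorylates many substrates, helped by the kinases PLK1 and Aurora A. Kinetochores on the centromeres then capture spindle microtubules, and the spindle checkpoint holds back the anaphase-promoting complex (APC/C) until every chromosome is attached. CDC20 activates the APC/C, which destroys securin and cyclin B and so frees separase to cut cohesin. The central spindle and its motors then place the cleavage furrow. Transcripts of these genes accumulate in G2 and M phase, under FOXM1 and the MuvB and B-MYB complex, and mark cycling cells in neural progenitors and in fibroblasts alike.

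Promoters of such genes are known for the CCAAT box, bound by NF-Y, and for the cell cycle genes homology region (CHR), bound by MuvB. Promoters from RefSeq (GRCm38.p6, a newer build than the mm9 of the expression tables) were matched for 26 of the 33 genes. The 7 others were Aurkb, Ccna2, Foxm1, Incenp, Kif20a, Spc24 and Tpx2. In the 250 bases before the start, CCAAT was found on either strand in 20 of 26 promoters (76.9%), against 34.5% of the promoters of all 27025 genes in the table. It occurred more than once in 12 of them (46.2% against 10.5%). A CHR, searched as TTTGAA or TTCGAA on either strand, was found in 9 of 26 (34.6% against 17.4%), and both motifs in 8 (30.8% against 6.21%). TTCGAA is its own reverse complement, and a match of one motif can share a base with a match of the other. Such matches describe the letters only. 4 promoter stretches that hold both are shown, from Cdk1, which did not pass the test between the cell types, from Bub1b, which was lower in STO cells, and from Ect2 and Mki67, which were higher. Each runs 5′ to 3′ on the strand of its gene, in GRCm38.p6 coordinates, with the motifs in capitals (ATTGG is CCAAT on the other strand).
Cdk1, chr10:69352914-69353128, minus strand: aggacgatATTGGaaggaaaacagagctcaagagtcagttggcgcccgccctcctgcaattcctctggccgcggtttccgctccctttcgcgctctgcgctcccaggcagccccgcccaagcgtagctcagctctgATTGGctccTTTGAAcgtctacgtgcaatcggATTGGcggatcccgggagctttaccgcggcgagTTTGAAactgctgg
Bub1b, chr2:118598015-118598110, plus strand: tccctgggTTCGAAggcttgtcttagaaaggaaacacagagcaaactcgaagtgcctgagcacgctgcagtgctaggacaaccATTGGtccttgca
Ect2, chr3:27153921-27154000, minus strand: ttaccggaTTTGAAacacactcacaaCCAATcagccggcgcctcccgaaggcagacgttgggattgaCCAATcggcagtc
Mki67, chr7:135716464-135716575, minus strand: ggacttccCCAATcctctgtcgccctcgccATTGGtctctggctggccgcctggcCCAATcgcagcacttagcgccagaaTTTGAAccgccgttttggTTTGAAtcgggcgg
By direction of the call between the cell types, CCAAT was found in 14 of the 18 matched promoters of genes higher in STO cells, in 3 of the 4 of genes lower in STO cells and in 3 of the 4 of genes that did not pass. The motif was therefore present in promoters of every outcome, and these counts are too small for more.

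The labels were checked first with marker genes. All 8 neural stem cell markers, among them Sox2, Nes and Olig2, were at 1 FPKM or more in both NSC replicates and below it in every STO replicate, with a summed level of 3850 to 4060 FPKM against 0.0509 to 0.0746 FPKM. The 7 fibroblast markers, such as Col1a1 and Dcn, were at 1 FPKM or more in every STO replicate, with a summed level of 1220 to 1290 FPKM. In the NSC replicates they summed to 1.10 to 1.62 FPKM, most of it from Thy1 (0.751 and 1.10 FPKM). FPKM are fragments scaled by the length of the transcript and by the depth of the library. NSCs also held markers of differentiated neural cells, with summed levels of 116 FPKM for the 5 neuronal markers, 64.5 FPKM for the 3 astrocyte markers and 114 to 117 FPKM for the 3 oligodendrocyte markers, against 12.3 to 12.9, 0.150 to 0.219 and 0.961 to 1.14 FPKM in STO replicates. Of the neuronal sum, Map2 alone gave 100 and 102 FPKM, and Rbfox3 was at 0.624 and 0.405 FPKM in the NSC replicates. Tubb3 alone of the 5 overlapped between the cell types, at 9.25 and 8.14 FPKM in NSCs and 8.57, 7.84 and 8.49 FPKM in STO cells. Most of the astrocyte sum was Aldh1l1 (47.0 and 45.7 FPKM), and most of the oligodendrocyte sum was Mbp (83.4 and 88.3 FPKM). Such sums do not show that differentiated cells were present. The part of any such cells in the differences of the mitosis genes was not tested. In bulk RNA a larger share of cells in G2 and M phase and more transcript per such cell cannot be told apart. Nothing in the sources used here says that the replicates came from separate cultures, so p-values measure only the spread between these samples, which may be technical.

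All 33 genes were transcribed in every sample. Levels ran from 8.38 FPKM for Espl1 in NSC replicate 1 to 134 FPKM for Cdc20 in STO replicate 1, and the median over the 33 genes was 32.4 and 34.2 FPKM in the NSC replicates and 38.5, 36.9 and 41.9 FPKM in the STO replicates. In each sample that median stood above 79.3% to 84.0% of the 12292 genes tested. The order of the levels was much alike, with a Spearman's rho of 0.86 between the means of the cell types over the 33 genes, all from the same libraries. Together the genes held 0.258% and 0.272% of the summed FPKM of all genes in the NSC replicates and 0.354%, 0.355% and 0.364% in the STO replicates. The groups did not overlap in that share, which amounts to scaling every sample to the same sum. Fragments behind a gene, as implied by the deposited confidence intervals, ranged from 357 for Pttg1 to 28893 for Mki67. The counting error implied in this way was at most 4.97% per gene and cell type, but the intervals may hold more than counting. The spread between replicates was above that implied error for 24 of the 33 genes in NSCs and for 30 in STO cells.

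**Figure D1:**
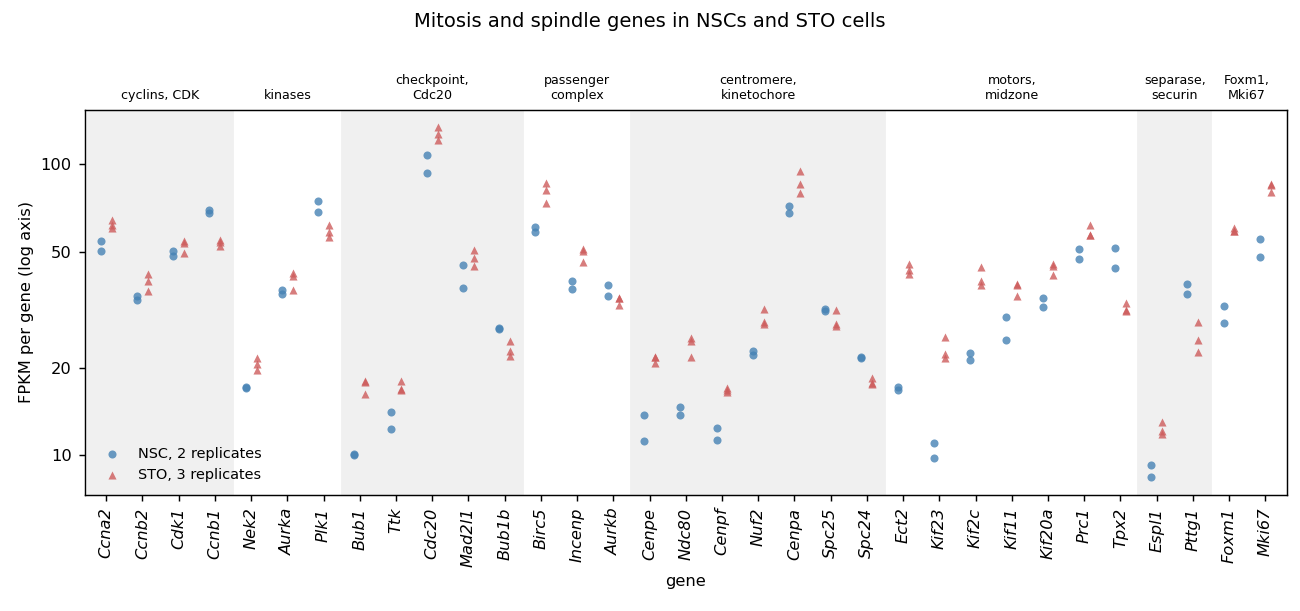
FPKM of the 33 mitosis and spindle genes (y axis, log scale) in 2 NSC replicates (circles) and 3 STO replicates (triangles), grouped by role along the x axis. Levels run from 8.38 FPKM for Espl1 to 134 FPKM for Cdc20, and the order of the genes is much alike in both cell types.

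STO cells were compared with NSCs by limma on log2(FPKM + 1) across the 12292 genes with a mean of at least 1 FPKM in either cell type, with Benjamini-Hochberg adjustment over all of them and a threshold of 0.05. The test asks which mitosis genes differ between a neural stem cell and a fibroblast culture. Of all genes tested, 85.6% passed, 41.9% higher and 43.7% lower in STO cells, so a call alone distinguishes little here. Of the 33 mitosis genes, 28 passed, 22 higher (66.7%) and 6 lower (18.2%) in STO cells. Their differences were small. The median difference was 0.34 in log2(FPKM + 1), against -0.02 over all genes tested, and the median absolute difference was 0.36 against 0.74. Only Ect2 and Kif23 differed by at least 1 and passed, 2 of 33 genes, whereas 38.4% of all genes tested did. Which genes reached 1 depended on the setting. Foxm1 and Kif2c joined them with samples scaled to the same sum, Foxm1 without NSC replicate 2, Tpx2 took the place of Ect2 with the top transcript, and Ect2 alone was left with the length trend removed. The groups did not overlap for 29 of the 33 genes, against 89.9% of all genes tested. With every sample scaled to the same sum of FPKM, 25 genes were higher and 3 lower, and the median of all genes tested moved by 0.16. Differences of less than that shift keep no sure sign, and with that scaling Aurkb and Spc25, neither of which passed, turned from lower to higher in STO cells. The shift was of like size for large and small differences. In proportion, small ones moved most, as for Ccnb1 (-0.17 in place of -0.34), Ccna2 (0.42 in place of 0.24), Nek2 (0.42 in place of 0.26), Prc1 (0.42 in place of 0.25) and Cdc20 (0.52 in place of 0.34).

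**Figure D2:**
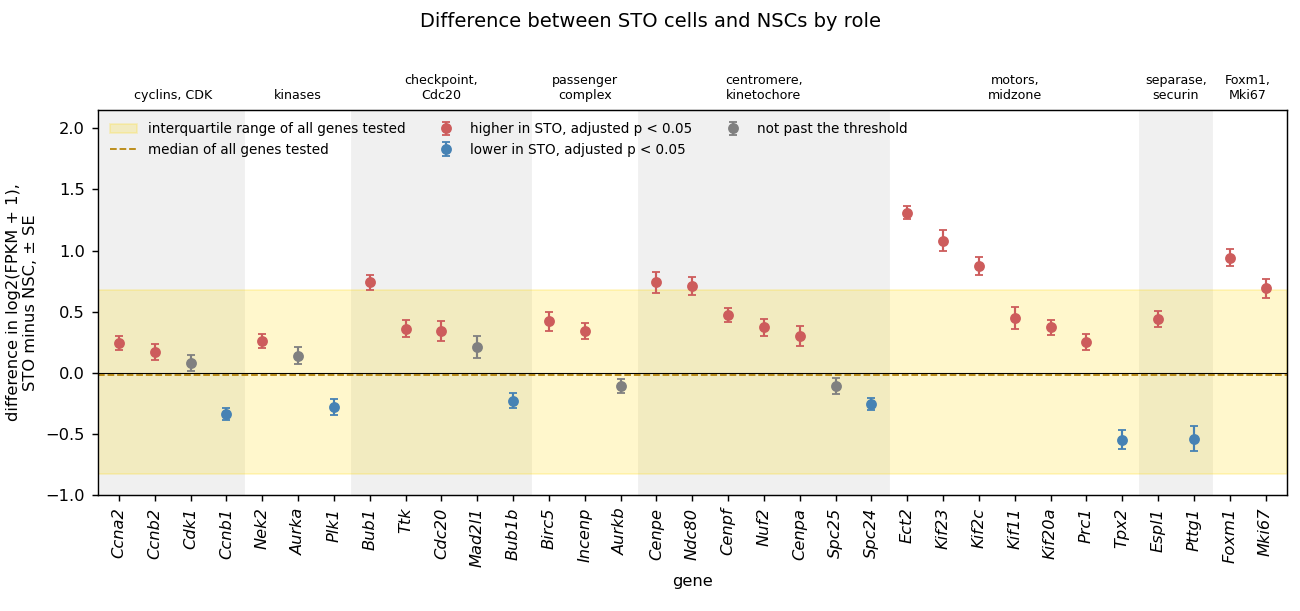
Difference in log2(FPKM + 1) between STO cells and NSCs (y axis, points with SE) for the 33 genes, ordered by role and then by size along the x axis. Red points are genes higher and blue points genes lower in STO cells, grey points did not pass, and the band holds the interquartile range of all genes tested (-0.83 to 0.68). Ect2, Kif23, Foxm1, Kif2c, Bub1, Cenpe, Ndc80 and Mki67 lie above the band, and no gene lies below it.

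Of the cyclins and CDK1, Ccnb1 was lower and Ccna2 and Ccnb2 were higher in STO cells, all by 0.34 or less, and Cdk1 did not pass. In what follows values are listed for NSC replicates 1 and 2 and then STO replicates 1, 2 and 3, and differences are STO minus NSC in log2(FPKM + 1) with the SE. Ccnb1, the mitotic cyclin that enters the nucleus at prophase (chr13:101548694-101556441, mm9), read 67.8 and 69.8 FPKM in NSCs and 55.1, 52.5 and 54.2 FPKM in STO cells. It was lower in every STO replicate, by a difference of -0.34 ± 0.051 (limma, adjusted p = 0.00078). Its relative Ccnb2, which sits mostly at the Golgi, went the other way, with 35.4 and 34.2 against 39.7, 36.8 and 41.9 FPKM. That difference, 0.17 ± 0.067, lay at the threshold (limma, adjusted p = 0.049) and lost its call under 9 of 16 alternatives. Ccna2, cyclin A of S and G2 phase, was higher in STO cells, with 60.5 to 64.3 FPKM against 50.5 and 54.4 FPKM (0.24 ± 0.058). Cdk1, the kinase all of them bind (chr10:68799383-68815660, mm9), read 50.5 and 48.4 FPKM in NSCs and 53.5, 49.5 and 54.6 FPKM in STO cells. Its groups overlapped, and the interval of the difference, -0.07 to 0.24 at 95%, leaves room for a small change either way. With samples scaled to the same sum it passed, at 0.26 (adjusted p = 0.0041). Ccnb1 and Ccnb2 have pseudogene copies in the RefSeq annotation, with which reads may be shared.

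The mitotic kinases split. Plk1, which acts from mitotic entry to cytokinesis (chr7:129302949-129313398, mm9), read 68.7 and 74.8 FPKM in NSCs against 58.4, 56.2 and 61.8 FPKM in STO cells. It was lower in all STO replicates (-0.28 ± 0.066, limma, adjusted p = 0.0069), but without NSC replicate 2 the adjusted p was 0.055 and with samples scaled to the same sum 0.12. Nek2, which parts the centrosomes, was higher in STO cells, at 19.6 to 21.6 FPKM against 17.1 and 17.0 FPKM (0.26 ± 0.057). Aurka, the spindle pole kinase, was at 35.9 and 36.9 FPKM in NSCs and 41.4, 36.9 and 42.3 FPKM in STO cells. It did not pass, with a 95% interval of -0.04 to 0.31, but did so in limma without STO replicate 2 (0.20, adjusted p = 0.025). It also passed with quantile normalization (0.17, adjusted p = 0.04), the same sum (0.31, adjusted p = 0.003) and the length trend removed (0.21, adjusted p = 0.015).

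Among the spindle checkpoint genes the paralogs Bub1 and Bub1b moved apart. Bub1, the kinase that recruits the other checkpoint proteins to the kinetochore (chr2:127625936-127657595, mm9), read 9.97 and 10.1 FPKM in NSCs and 16.2, 18.0 and 17.9 FPKM in STO cells, a difference of 0.74 ± 0.063 (limma, adjusted p = 5.3e-05). Bub1b encodes BUBR1, a part of the complex that inhibits CDC20 (chr2:118423947-118467328, mm9), and read 27.1 and 27.3 FPKM in NSCs against 22.8, 22.0 and 24.6 FPKM in STO cells. It was lower, at -0.23 ± 0.062 (limma, adjusted p = 0.013). When either NSC replicate was left out the difference stayed at -0.23 and -0.22 but no longer passed (adjusted p = 0.070 and 0.076), and with samples scaled to the same sum it was -0.061 (adjusted p = 0.33). The kinase gene Ttk, which starts checkpoint signalling, was higher in STO cells, at 16.8 to 18.0 FPKM against 12.3 and 14.1 FPKM (0.36 ± 0.071). Cdc20, the APC/C activator and the most abundant of the 33 transcripts per length, read 93.1 and 108 FPKM in NSCs and 134, 121 and 127 FPKM in STO cells (0.34 ± 0.081). Without NSC replicate 1 it no longer passed (adjusted p = 0.052). Mad2l1, which encodes the MAD2 that closes onto CDC20, did not pass, with 37.7 and 45.0 against 44.9, 47.6 and 50.7 FPKM and a 95% interval of -0.02 to 0.43. Without NSC replicate 2 the difference was 0.33. In limma it passed with quantile normalization (0.24, adjusted p = 0.029), the same sum (0.38, adjusted p = 0.0064) and the length trend removed (0.33, adjusted p = 0.0071).

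The chromosomal passenger complex corrects wrong attachments and later moves to the midzone. Its survivin subunit Birc5 was higher in STO cells, at 73.6 to 86.3 FPKM against 61.0 and 58.7 FPKM (0.42 ± 0.078), as was the scaffold Incenp, at 46.1 to 51.2 FPKM against 39.8 and 37.4 FPKM (0.34 ± 0.066). Its kinase Aurkb was not. It read 35.4 and 38.5 FPKM in NSCs and 34.7, 32.9 and 34.6 FPKM in STO cells, with a 95% interval of -0.26 to 0.03. With samples scaled by the median ratio it passed as lower (-0.17, limma, adjusted p = 0.021), and without NSC replicate 1 the difference was -0.17. Aurkb has a pseudogene copy that may share reads.

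At the centromere and kinetochore, 5 of 7 genes were higher in STO cells and 1 was lower, against 41.9% and 43.7% of all genes tested. Cenpe, the motor that carries chromosomes to the spindle equator (chr3:134875527-134936504, mm9), read 11.2 and 13.7 FPKM in NSCs and 20.7, 21.8 and 21.7 FPKM in STO cells, a difference of 0.74 ± 0.087 (limma, adjusted p = 0.00026). Cenpf, a large outer kinetochore protein, was at 11.3 and 12.4 against 16.5, 16.8 and 17.0 FPKM (0.47 ± 0.057). Cenpa, the histone H3 variant that marks the centromere, was at 68.0 and 72.1 against 95.1, 79.7 and 85.5 FPKM. Its call (0.30 ± 0.084, limma, adjusted p = 0.015) was lost when either NSC replicate was left out, at adjusted p of 0.13 and 0.076, and with the top transcript in place of the sum (0.18, adjusted p = 0.094).

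The NDC80 complex, which grips the microtubule, joins the subunits NDC80 and NUF2 to the subunits SPC24 and SPC25. Ndc80 and Nuf2 were higher in STO cells, Spc24 was lower, and Spc25 did not pass. Ndc80 (chr17:71845440-71876197, mm9) read 13.7 and 14.6 FPKM in NSCs and 21.8, 24.6 and 25.2 FPKM in STO cells, a difference of 0.71 ± 0.076 (limma, adjusted p = 0.00016). Nuf2 was at 22.1 and 22.9 against 28.2, 28.7 and 31.7 FPKM (0.37 ± 0.067). Spc24 (chr9:21559884-21564747, mm9) was lower in every STO replicate instead, with 21.6 and 21.8 FPKM in NSCs and 18.4, 17.7 and 17.6 FPKM in STO cells (-0.26 ± 0.049, limma, adjusted p = 0.0024). Spc25 overlapped between the cell types, at 31.4 and 31.8 against 28.3, 27.9 and 31.5 FPKM (95% interval -0.27 to 0.05). In limma it passed as lower without STO replicate 3 and with samples scaled by the median ratio (both -0.16, adjusted p = 0.044). The transcripts of Spc24 and Spc25 are short. In an alternative that removed the trend of the difference with transcript length, added after the data were seen, Spc24 came to 0.0097 and did not pass (adjusted p = 0.88), nor did it with samples scaled to the same sum (-0.097, adjusted p = 0.11).

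The widest spread was among the motors and midzone genes. All 7 of them passed, as did 85.6% of all genes tested. Ect2, the exchange factor that activates RhoA at the cleavage furrow (chr3:26996144-27052800, mm9), read 16.8 and 17.2 FPKM in NSCs and 42.1, 45.5 and 43.5 FPKM in STO cells. This was the largest difference of the 33 genes, 1.31 ± 0.055 (limma, adjusted p = 1.6e-06), with means in a ratio of 2.57, and 28.3% of all genes tested differed by more. Kif23, the motor of the centralspindlin complex that recruits ECT2 (chr9:61765085-61794606, mm9), followed with 11.0 and 9.79 against 22.3, 21.5 and 25.4 FPKM (1.08 ± 0.088, limma, adjusted p = 4.1e-05). Racgap1, their partner in that complex and no member of the list, named after its values were seen, was at -0.06 and did not pass. Kif2c, a kinesin that takes microtubules apart at the kinetochore (chr4:116832238-116855229, mm9), was at 21.2 and 22.5 against 38.5, 39.7 and 44.2 FPKM (0.87 ± 0.074, limma, adjusted p = 5e-05).

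Smaller rises were found for 3 further genes of this role. Kif11, which pushes the spindle poles apart, read 24.8 and 29.8 FPKM in NSCs and 35.4, 38.8 and 38.5 FPKM in STO cells (0.45 ± 0.089). Kif20a, a midzone kinesin, was at 32.4 and 34.7 against 44.6, 41.5 and 45.3 FPKM (0.37 ± 0.063), and Prc1, which bundles the midzone microtubules, at 47.4 and 51.0 against 57.1, 57.0 and 61.9 FPKM (0.25 ± 0.064, adjusted p = 0.071 without NSC replicate 1). Tpx2, which activates Aurora A and seeds spindle microtubules (chr2:152673700-152721057, mm9), was the exception. It read 44.1 and 51.5 FPKM in NSCs and 31.3, 31.6 and 33.4 FPKM in STO cells, the largest fall of the 33 genes at -0.55 ± 0.078 (limma, adjusted p = 0.00062). With the top transcript in place of the sum it was -1.08.

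Separase and its inhibitor differed in opposite directions. Pttg1, which encodes securin (chr11:43233750-43239750, mm9), read 38.8 and 35.7 FPKM in NSCs and 24.8, 22.7 and 28.6 FPKM in STO cells, a difference of -0.54 ± 0.101 (limma, adjusted p = 0.0025, and 0.061 without NSC replicate 1). Espl1, which encodes separase (chr15:102126724-102154787, mm9), read 8.38 and 9.25 FPKM in NSCs and 13.0, 12.1 and 11.8 FPKM in STO cells, a difference of 0.44 ± 0.067 (limma, adjusted p = 0.00093).

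Foxm1 and Mki67 were both clearly higher in STO cells. Foxm1, the forkhead factor of G2 and M phase genes (chr6:128313012-128325904, mm9), read 28.4 and 32.7 FPKM in NSCs and 58.8, 60.2 and 58.9 FPKM in STO cells, a difference of 0.94 ± 0.070 (limma, adjusted p = 2.6e-05). Mki67, the Ki-67 protein that coats mitotic chromosomes and marks cycling cells (chr7:142881471-142908062, mm9), was at 47.9 and 55.4 against 80.3, 85.6 and 84.8 FPKM (0.69 ± 0.076, limma, adjusted p = 0.00019). With the means in ratios of 1.94 and 1.62, neither the factor nor the marker was absent from the NSCs.

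Because FPKM depend on the scaling between libraries, ratios between pairs of partner genes were taken within each sample. The 8 pairs were chosen after the values were seen, so they are a description with no test. Securin to separase, Pttg1/Espl1, was 4.63 and 3.86 in NSCs and 1.91, 1.88 and 2.41 in STO cells. Ccnb1/Ccnb2 was 1.91 and 2.04 against 1.39, 1.43 and 1.29. Both ratios were smaller in every STO replicate than in any NSC replicate. Spc24/Ndc80 went from 1.58 and 1.49 to 0.844, 0.721 and 0.701, so that the order of these genes was exchanged. Spc25/Nuf2 was 1.42 and 1.39 against 1.01, 0.972 and 0.992, and Tpx2/Aurka was 1.23 and 1.39 against 0.756, 0.857 and 0.790. Bub1/Bub1b was larger in STO cells instead, at 0.712, 0.818 and 0.730 against 0.368 and 0.369. For Aurkb/Incenp the ratios were 0.889 and 1.03 against 0.753, 0.655 and 0.677, and for Kif23/Kif20a 0.338 and 0.282 against 0.50, 0.519 and 0.560. Such ratios do not cancel the trend of the difference with transcript length. The first gene has the shorter transcript in Pttg1/Espl1, Spc24/Ndc80, Spc25/Nuf2 and Aurkb/Incenp, all smaller in STO cells. It has the longer one in Ccnb1/Ccnb2 and Tpx2/Aurka, also smaller there. With that trend removed, the difference of Spc24 came to 0.0097.

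**Figure D3:**
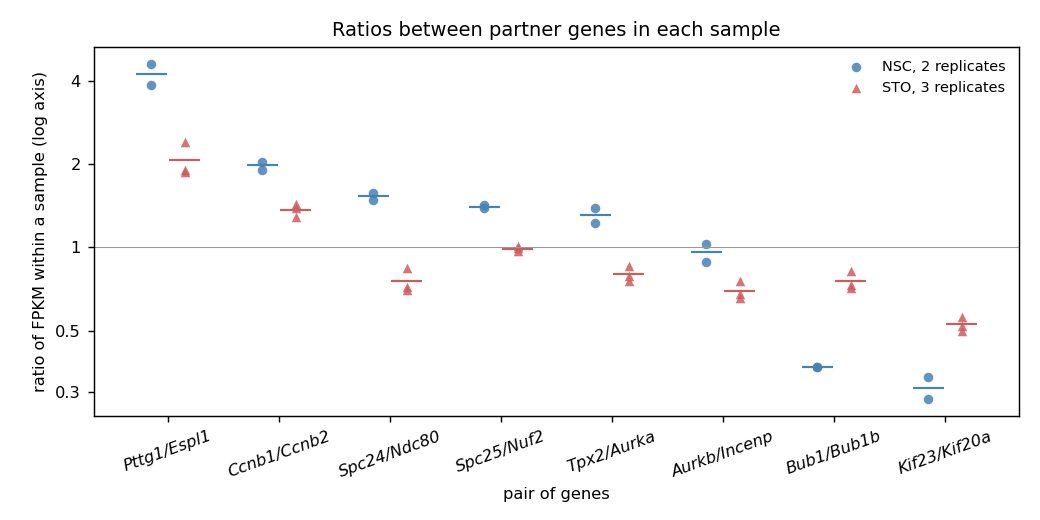
Ratio of the FPKM of partner genes within each sample (y axis, log scale) for 8 pairs (x axis), in 2 NSC replicates (circles) and 3 STO replicates (triangles), with the mean of each cell type as a bar. In each of the 8 pairs, picked after the values were seen, the STO replicates lie apart from the NSC replicates. For Pttg1/Espl1 they read 1.88 to 2.41 against 3.86 and 4.63. No share over all gene pairs was computed to set beside this. Of single genes tested 89.9% did not overlap, so the separation does not mark these pairs out. The ratios are not corrected for transcript length.

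The differences moved with transcript length. Over the 33 genes, Spearman's rho between the difference and the length of the longest transcript was 0.54, against 0.11 over 11814 genes tested that had a length. With all genes divided by length into 10 bins of like size, their median difference rose from -0.57 in the shortest bin (39 to 1298 bases) to 0.23 in the longest (6465 to 28204 bases). Of the 9 mitosis genes under 2000 bases, 3 were higher and 2 lower in STO cells, with a median difference of 0.14. Of all genes of that length 29.9% were higher and 53.7% lower, with a median of -0.31. Of the 10 of at least 3500 bases, 8 were higher and 2 lower, with a median of 0.46, against 47.8% and 39.4% of all genes and a median of 0.12. Between these length classes the median thus rose less over the mitosis genes than over all genes. Tpx2 and Bub1b were the long genes that were lower. With the trend over all genes removed, 24 mitosis genes were higher and 5 lower, rho over the 33 genes was 0.22, and the median difference was 0.28. Single values moved with it by over 1.5 times for the long Cenpf (0.26) and Espl1 (0.29), for Nek2 (0.15), Prc1 (0.16) and Ccna2 (0.16), and in the other direction for the short Cenpa (0.57) and Ccnb2 (0.36), all of which still passed. The part of transcript length in the result was not tested beyond this.

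**Figure D4:**
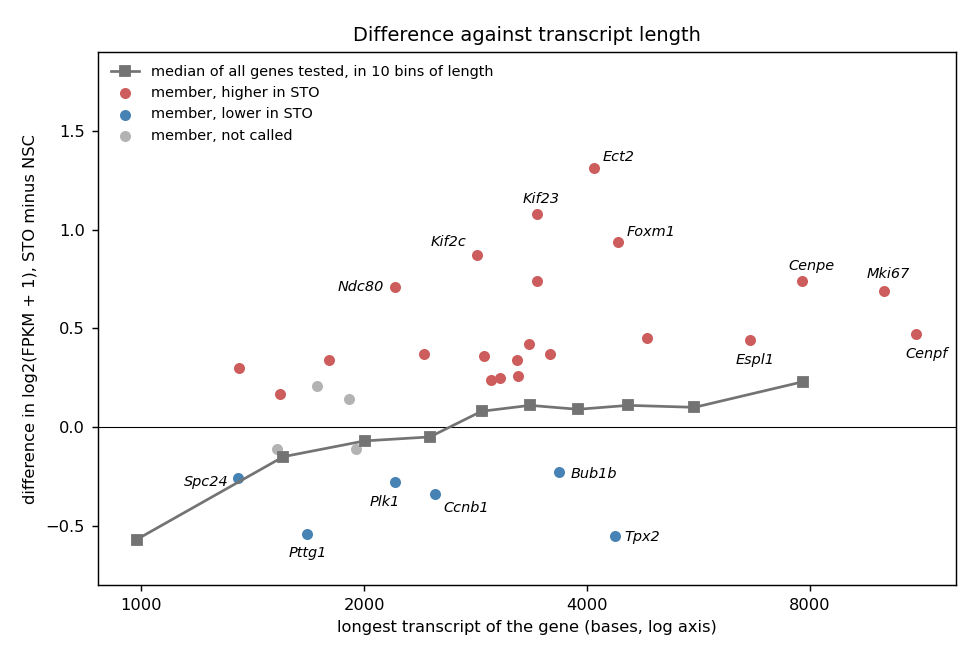
Difference in log2(FPKM + 1), STO minus NSC (y axis), against the longest transcript of the gene in bases (x axis, log scale) for the 33 genes (points coloured by call), with the median of all genes tested in 10 bins of length (squares). The median of all genes climbs from -0.57 to 0.23, and most of the 33 points lie above it, while Tpx2, Pttg1, Ccnb1, Plk1 and Bub1b are among those below.

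The tables list 64 transcripts for the 33 genes, and 12 genes had more than 1 transcript above 0. Cufflinks divides the fragments of a gene among its transcripts, so a transcript listed at 0 can be an estimate that failed to separate it. The genes described here were picked after the values were seen. Ect2 transcript NM_007900 was listed at 0 in both NSC replicates and at 15.6, 15.8 and 18.0 FPKM in the STO replicates, where it made up 37.2%, 34.7% and 41.4% of the gene. Transcript NM_001177626 also stood higher, at 26.4, 24.7 and 25.5 FPKM against 12.0 and 13.5 FPKM. The higher level of Ect2 thus did not rest on the transcript listed at 0 alone. For Tpx2, NM_001141977 was listed at 0 in NSCs and at 4.40, 4.24 and 4.68 FPKM in STO cells. The share of NM_001141978 was 41.0% and 42.1% in NSCs and 28.2%, 27.6% and 26.7% in STO cells. Mad2l1 did not pass as a gene, yet its transcript NM_019499 made up 24.9% and 26.4% in NSCs and 39.7%, 37.6% and 36.2% in STO cells. With the top transcript in place of the sum, the difference of Mad2l1 was -0.046 rather than 0.21 (neither passed). Shares of the Prc1 transcripts overlapped between the cell types, NM_145150 being at 46.7% and 49.7% against 50.9%, 44.3% and 50.2%.

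**Figure D5:**
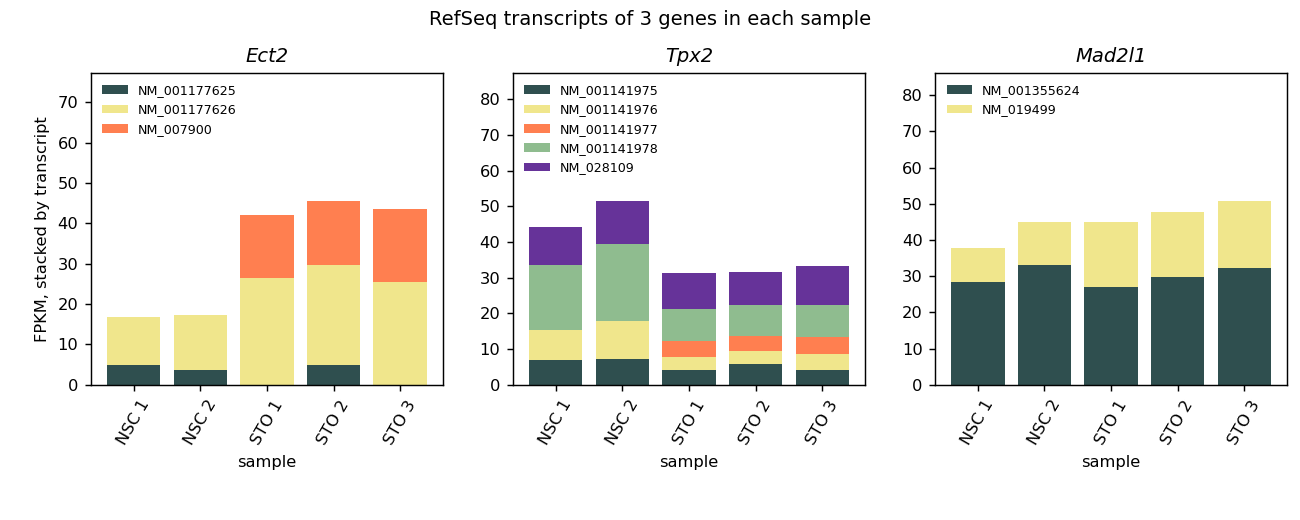
FPKM (y axis) of the RefSeq transcripts of Ect2, Tpx2 and Mad2l1, stacked by transcript in each of the 5 samples (x axis). NM_007900 of Ect2 and NM_001141977 of Tpx2 are listed at 0 in both NSC replicates and appear in all 3 STO replicates.

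Other mitosis genes were read from a list of 103 genes of the same processes, of which 102 were tested (Haus1 was listed at 0 in every sample). In STO cells 54 of them were higher (52.9%) and 30 lower (29.4%), and 18 did not pass, with a median difference of 0.22. Of all genes tested 41.9% were higher and 43.7% lower, and the counts of each list below stand against these shares. With samples scaled to the same sum the split was 62 to 19, and without NSC replicate 2 it was 49 to 19. Of 14 regulators of entry and exit, 9 were higher and 5 lower. Mastl, the Greatwall kinase (0.96 ± 0.064), and its substrate Arpp19 (0.91 ± 0.111) were higher, whereas Ensa, the other substrate (-0.60 ± 0.060), and the CDK subunit Cks2 (-1.01 ± 0.071) were lower. With the top transcript in place of the sum, Arpp19 came to 5.24 and Ensa to -0.14, which did not pass, and with the length trend removed Cks2 came to -0.33. Of 16 APC/C genes, 8 were higher and 7 lower. The scaffold subunits Anapc4 (1.79 ± 0.074) and Anapc5 (1.24 ± 0.052) led on one side, and the small subunit Anapc13 (-1.25 ± 0.113) and the E2 enzyme Ube2c (-1.26 ± 0.066) on the other. Anapc13 was at -0.26 with the length trend removed. Ube2c was at 224 and 241 FPKM in NSCs and 99.8, 91.7 and 98.4 FPKM in STO cells.

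Of 36 further centromere and kinetochore genes, 20 were higher and 9 lower. Kntc1 (1.40 ± 0.059) and Zw10 (1.16 ± 0.069), which together recruit dynein to the kinetochore, were higher in STO cells. Zwint, the protein that anchors them there, was lower, with 216 and 221 FPKM in NSCs and 71.3, 68.1 and 72.0 FPKM in STO cells (-1.62 ± 0.054). Mad2l2, a relative of Mad2l1 that also serves a DNA repair polymerase, had the largest fall (-2.53 ± 0.120). Of 21 spindle and microtubule genes tested, 9 were higher, led by Kif20b (1.62 ± 0.077) and Kif15 (0.96 ± 0.082), and 6 were lower, led by Knstrn (-0.91 ± 0.065) and Nusap1 (-0.69 ± 0.130).

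Of 7 cytokinesis genes, 4 were higher and 1 was lower. Anln, the anillin scaffold of the contractile ring on which RhoA acts, had the largest rise of all mitosis genes examined, from 11.0 and 12.1 FPKM in NSCs to 79.7, 80.6 and 83.0 FPKM in STO cells (2.71 ± 0.060). Cep55, which acts at abscission, was also higher (0.92 ± 0.068), and Cntrob was lower (-0.23 ± 0.071), a call lost without NSC replicate 1 (adjusted p = 0.12), STO replicate 1 (0.055) or STO replicate 2 (0.056) and with samples scaled to the same sum (0.31). Of 8 genes of MuvB, B-MYB and their partner factors, 4 were higher and 2 lower. The CHR-binding MuvB subunit Lin54 (1.58 ± 0.072) and the partner factor E2f4 (0.71 ± 0.072) led on one side. Rbbp4 (-0.71 ± 0.083) and Lin37 (-0.60 ± 0.099, or -0.30 with the length trend removed) were lower.

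For comparison, STO cells had higher levels of 15 of 24 DNA replication genes and lower levels of 4, with a median difference of 0.26. Pola1 (1.68 ± 0.059) and Orc1 (1.64 ± 0.110) were higher, and the clamp gene Pcna, at 231 and 223 against 131, 126 and 140 FPKM (-0.78 ± 0.064), and Gins1 (-0.64 ± 0.105) were lower. Gins1 turned to 0.24 with the top transcript, where it did not pass, and was at -0.23 with the length trend removed. Of 6 reference genes, 4 were higher and 1 was lower, from Rplp0 (1.09 ± 0.080) and Actb (0.70 ± 0.127) to Ppia (-0.81 ± 0.080). Quantile normalization gave 1.17 for Actb and -0.36 for Ppia, and Actb did not pass without NSC replicate 2 (0.61, adjusted p = 0.066). The median of the 33 mitosis genes, 0.34, lay within the span of these genes, which are often used as unchanging references. That span covers nearly all of the interquartile range of all genes tested (-0.83 to 0.68), so this says little about the mitosis genes.

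Replicates of a cell type also differed in these genes as a body. In NSCs, 26 of the 33 genes were higher in replicate 2 than in replicate 1, with a median difference of 0.08, against 59.6% of all genes tested. In STO cells, replicate 3 stood above replicate 1 in 27 genes and above replicate 2 in 25, with medians of 0.08 and 0.09, against 46.8% and 56.5% of all genes tested. The largest gap within a cell type was 0.32, for Pttg1 between STO replicates 3 and 2. These shifts were smaller than the median difference of 0.34 between the cell types, and similar in size to the differences of Cdk1, Aurkb, Spc25 and Aurka, none of which passed.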

How the data were processed

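RNA-seq of 2 NSC and 3 STO replicates was grouped by the labels. By the paper's methods, reads of stranded mRNA libraries (paired ends) were placed on mm9 by Hisat2, and RefSeq transcripts were measured by Cufflinks 2.2.1. The authors deposited FPKM values, with the bounds of their confidence intervals, for 40201 transcripts per sample. Depth was already divided out, and no read counts were used. Implied fragments were computed by taking the distance to the upper bound as 2 standard deviations of a Poisson count. Their sum was 20587301 and 22271922 for NSCs and 15223341, 17078766 and 21952799 for STO cells. They do not follow level and length as counts would. In NSC replicate 1, Aurkb (35.4 FPKM, 1950 bases) implied 2187 fragments and Cdc20 (93.1 FPKM, 1793 bases) 1612. The intervals may thus hold more than counting error, and the implied fragments are a rough guide only. Between 0 and 20 transcripts per sample had a failed estimate, none of them of the 33 genes.

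Symbols were matched for 39951 transcripts through RefSeq identifiers (GRCm38.p6, names only), and FPKM of the same symbol with overlapping loci were summed. Loci are in mm9, as deposited, with starts counted from 1. Lengths are the longest coding transcript of GENCODE vM1 (mm9). The test was run in R 4.3.3 by limma 3.58.1, with lmFit and a trended eBayes, on log2(FPKM + 1), which understates changes of low genes. In a simulation with 200 changed genes among 12292, 176 were called with the right sign, and 5 unchanged genes were called. In the data themselves 85.6% of the genes tested passed, so the rates of the simulation do not carry over to this comparison. Python 3.11.15, pandas 2.3.3, numpy 2.4.6 and matplotlib 3.10.9 were used otherwise.

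The members and lists were chosen with earlier results of these data known. All 33 members are named, and of each other list the called genes without overlap of the groups that differed most, 2 upward and 2 downward. Promoters were oriented by the gene's strand, checked on transcripts (24 of 26 matched as written, 0 reversed). Alternatives changed the pseudocount (0.1), filter, scaling, trend, replicate block, transcript choice, failed estimates, a minimum difference of 1 and each replicate. Removal of the length trend was added after seeing the data.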

Additional observations from a re-analysis of the deposited data

How the results depend on the processing

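Under 16 alternatives, 20 of the 33 mitosis genes kept their direction and their side of the threshold. Against 22 higher and 6 lower, samples scaled to the same sum of FPKM gave 25 and 3 (and 19 in place of 30 other mitosis genes lower), and scaled by the median ratio 21 and 8. With a difference of at least 1 required, 2 were higher and 0 lower, against 10 and 7 of the other mitosis genes and 2103 and 2617 of all genes. Leaving out 1 replicate at a time gave 18 to 23 higher and 4 to 7 lower, and 19 (without NSC replicate 2) to 26 other mitosis genes lower. The median difference of 0.34 was 0.51 with the same sum, 0.29 with the median ratio, 0.28 with the length trend removed and 0.26 to 0.36 with 1 replicate left out. Among the 33 genes the sign turned in 5 cases, to values that did not pass: Mad2l1 with the top transcript (-0.046), Aurkb (0.057) and Spc25 (0.058) with the same sum, and Spc24 (0.0097) and Spc25 (0.085) with the length trend removed. Only the same replicate number links samples across cell types. The correlations of deviations were 0.00752 and 0.0609 for the same numbers and -0.0609 to 0.0503 for others. Deviations of 2 NSC replicates mirror each other, so each correlation has a counterpart of opposite sign. These values therefore cannot show whether the samples were paired. With the replicate block 21 genes were higher and 6 lower. With 2 NSC replicates, leaving out 1 assumes that the other varies like the STO replicates. At 357 or more implied fragments per gene and sample, the implied counting error was above the spread between replicates for 9 of the 33 genes in NSCs and 3 in STO cells.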
